A study of Mus musculus with 2 samples.

Results

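Tbx1, Dpp10, Nxph1, Gfra3, Pdzrn4 and Mapk15 are 6 genes whose signal was lower on every array of pancreatic islets from pancreatectomized mice than on every array of islets from sham-operated mice. They were selected on that difference in signal between the 4 pancreatectomy and 4 sham arrays, out of 18638 genes with a symbol that could be measured, so their differences between the groups are given as a description and carry no test. The islets were isolated from C57BL/6J mice aged 8 weeks, 3 days after an operation that took out 60% of the pancreas or after a sham operation. Total RNA was labelled with the dye Cy3 and hybridised to 1-colour expression arrays, 4 arrays for pancreatectomy and 4 for sham. No genetic modification is named for either group. Whether arrays of one group hold RNA of different animals or islet preparations is not stated in the labels, so every SD, SE and p-value below reflects array-to-array spread that may be technical.

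Partial pancreatectomy is a classical way to make the remaining islets respond to a loss of endocrine mass, and beta cells in the remnant are known to re-enter the cell cycle. The 6 genes belong to different families. Tbx1 encodes a T-box transcription factor needed for the pharyngeal arches, the thymus and the outflow tract of the heart. Dpp10 encodes a membrane protein related to dipeptidyl peptidases that has no peptidase activity and serves as an accessory subunit of Kv4 potassium channels. Nxph1 encodes a secreted neurexophilin that binds alpha-neurexins, which are adhesion proteins of synapses and secretory cells. Gfra3 encodes a membrane-anchored co-receptor that binds artemin and signals through the receptor kinase Ret. Pdzrn4 encodes a protein with PDZ and RING domains, of a family that includes ubiquitin ligases. Mapk15 encodes an atypical MAP kinase linked to autophagy and to the formation of cilia.

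RefSeq promoter windows (build GRCm38.p6) were found for 4 of the 6 genes and used here for 3, chosen to show how unlike their upstream sequences are. Each window holds the 250 bases before an annotated start, written 5′ to 3′ along the gene's strand, with matches to the searched motifs in capitals. The Tbx1 window lies before the outermost annotated start, at chr16:18590672-18590921 on the minus strand. The Dpp10 window lies at chr1:124045560-124045809 on the minus strand, before a start that falls inside the span of longer predicted transcripts. The Pdzrn4 window lies before the first start, at chr15:92396560-92396809 on the plus strand.
Tbx1: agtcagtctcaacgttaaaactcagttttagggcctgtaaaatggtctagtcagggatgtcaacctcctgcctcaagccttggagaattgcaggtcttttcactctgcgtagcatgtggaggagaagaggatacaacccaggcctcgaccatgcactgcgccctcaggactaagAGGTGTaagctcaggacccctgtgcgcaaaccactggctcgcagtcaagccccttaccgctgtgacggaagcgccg
Dpp10: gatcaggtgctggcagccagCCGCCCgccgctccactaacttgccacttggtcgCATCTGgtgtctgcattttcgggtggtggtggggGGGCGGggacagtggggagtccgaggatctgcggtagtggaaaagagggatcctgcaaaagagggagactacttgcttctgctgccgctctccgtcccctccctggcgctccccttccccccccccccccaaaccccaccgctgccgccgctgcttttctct
Pdzrn4: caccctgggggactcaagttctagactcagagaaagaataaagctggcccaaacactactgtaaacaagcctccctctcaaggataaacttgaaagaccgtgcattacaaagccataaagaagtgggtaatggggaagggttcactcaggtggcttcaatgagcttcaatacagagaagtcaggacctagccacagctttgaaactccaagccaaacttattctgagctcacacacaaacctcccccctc
The 6 motifs searched on both strands were the T-box half-site AGGTGT, the E-box CAGATG of Neurod and Neurog factors, the TATA box TATAAA, the CCAAT box CCAAT, the GC box GGGCGG and the cAMP response element TGACGTCA. In the printed Tbx1 window the capitals mark 1 T-box half-site, 76 bases before the start. In the Dpp10 window they mark 1 E-box, 196 bases before the start, and 2 GC boxes. The printed Pdzrn4 window held no match, which says only that these letters are not in this window. Among 32851 windows of the same length, 11.8% held the T-box half-site, 14.4% the E-box, 12.4% the TATA box, 33.8% the CCAAT box, 32.7% the GC box and 1.55% the cAMP response element. A match is a description of letters and no binding site.

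The windows differed in base composition. The Dpp10 window had 65.2% G and C and 14 CpG dinucleotides, and the Pdzrn4 window had 47.2% and 1 CpG. The Tbx1 window printed had 54.4% and 10 CpG, while the window before an inner Tbx1 start had 67.2% and 17. The window before a second Pdzrn4 start had 37.2%, 2 CpG and 1 E-box, 125 bases before that start. The Nxph1 window, not printed, had 66.8%, 20 CpG, 1 CCAAT box and 2 GC boxes. The median over all windows was 52.4% and 6 CpG, so the Tbx1, Dpp10 and Nxph1 windows lay above the median in CpG and both Pdzrn4 windows lay below it.

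All 6 genes were lower on all 4 pancreatectomy arrays than on all 4 sham arrays, as the choice of genes required, with mean levels from 13.0% to 50.3% of the sham level. Values are log2 of the processed signal after scaling each array to its 75th percentile, called normalized log2 below, and a difference of -1 is a halving. Of all 30858 features tested, genes with a symbol and probes without one, 5.41% had every pancreatectomy array below every sham array. Bulk RNA cannot tell fewer cells of a type from less RNA per cell, and this holds for every gene below. Probe positions are those of the mouse build mm9, per the file headers, and exon and UTR annotation of that build was not used here.

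Tbx1 stood lowest of the 18638 genes by its difference. Its 1 probe, at chr16:18581807-18581866 on the minus strand, read 8.43, 8.47, 8.73 and 7.53 normalized log2 on sham arrays 1 to 4 and 4.99, 4.50, 6.19 and 5.69 on pancreatectomy arrays 1 to 4. Sham array 4 was the lowest of its group and pancreatectomy array 3 the highest of its group, and a gap of 1.34 still separated them. The mean was 8.29 ± 0.53 (SD, n = 4) in sham and 5.34 ± 0.75 (SD, n = 4) in pancreatectomy arrays, a difference of -2.95 ± 0.39 (SE), or 7.72-fold lower. The spread of Tbx1 within the pancreatectomy arrays was the widest of the 6 genes. All 8 arrays read the Tbx1 probe well above background.

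Dpp10 was read by 2 probes that lie 1318 bases apart on chromosome 1. The brighter, at chr1:125230381-125230440 on the minus strand, read 9.92, 9.67, 10.14 and 9.64 on the sham arrays and 8.38, 8.64, 8.24 and 8.74 on the pancreatectomy arrays. The arrays of each group lay close together and the groups were 0.90 apart. The difference was -1.34 ± 0.18 (SE, n = 4 and 4), or 2.53-fold lower. The other probe read 8.53, 8.55, 8.85 and 8.56 on sham arrays and 7.58, 7.69, 7.68 and 7.81 on pancreatectomy arrays, a difference of -0.93 ± 0.14. Both Dpp10 probes were well above background on all 8 arrays and ran together across them, with Pearson's r of 0.98 over 8 arrays that include the group difference.

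Nxph1 was close to background on these arrays. Its brighter probe, at chr6:9197454-9197513 on the plus strand, read 5.48, 5.005, 4.55 and 5.21 on sham arrays and 3.84, 3.91, 3.86 and 3.98 on pancreatectomy arrays. The sham arrays were spread and the pancreatectomy arrays were nearly level, with a gap of 0.57 between the groups. The difference was -1.16 ± 0.20 (SE, n = 4 and 4), or 2.24-fold lower. Sham array 3 and pancreatectomy array 2 did not read the Nxph1 probe well above background, and these were the arrays with the lowest 75th percentile of signal, 177 and 279 against 376 to 653 on the other 6. The second Nxph1 probe, at chr6:8900188-8900247, was well above background on 3 of 4 sham arrays and on 0 of 4 pancreatectomy arrays. Its sham mean was therefore set against a floor, which gave 1.43-fold lower. That value sets the sham mean of 3.91 against a floor of 3.40. The floor is the mean over pancreatectomy arrays of the lowest signal well above background or the probe's own value, whichever was higher. The measured pancreatectomy mean was 2.70. The sham mean includes sham array 3, which read 4.10 and was not well above background, so 1.43 is no strict bound.

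Gfra3 had 1 probe, at chr18:34849560-34849619 on the minus strand. It read 10.45, 10.48, 10.86 and 10.22 on sham arrays and 9.001, 9.32, 9.41 and 9.55 on pancreatectomy arrays. Pancreatectomy array 1 was the lowest, and the groups stood 0.67 apart. The difference was -1.18 ± 0.19 (SE, n = 4 and 4), or 2.27-fold lower, with all 8 arrays well above background.

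Pdzrn4 was read by 2 probes that lie 1088 bases apart on chromosome 15. The brighter, at chr15:92602131-92602190 on the plus strand, read 5.53, 6.02, 6.37 and 6.19 on sham arrays and 4.18, 4.86, 4.73 and 4.53 on pancreatectomy arrays. Array 1 was the lowest of each group, and the gap between the groups was 0.67. The difference was -1.45 ± 0.22 (SE, n = 4 and 4), or 2.74-fold lower. The dimmer Pdzrn4 probe gave -1.39 ± 0.35 with a gap of 0.11, and only 2 of 4 pancreatectomy arrays read it well above background.

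Mapk15 was the least changed of the 6 genes. Its probe, at chr15:75828671-75828837 on the plus strand, spans 167 bases of genome where the other 8 probes span 60. It read 7.13, 7.69, 7.45 and 7.49 on sham arrays and 6.51, 6.35, 6.61 and 6.32 on pancreatectomy arrays. Every sham array lay above 7 and the gap between the groups was 0.52. The difference was -0.99 ± 0.16 (SE, n = 4 and 4), or 1.99-fold lower.

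**Figure D1:**
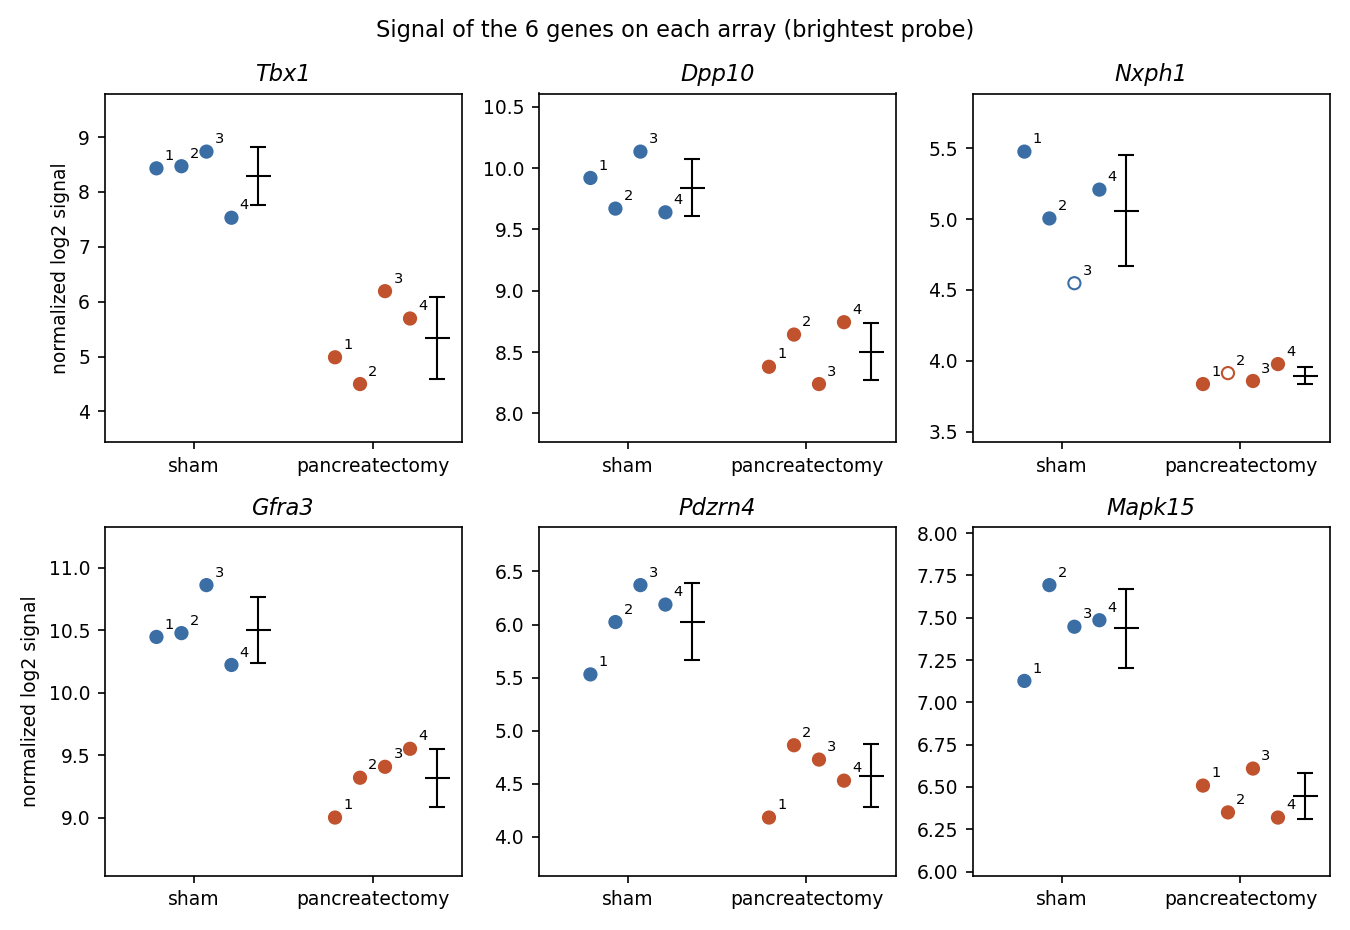
Normalized log2 signal (y axis, a separate range for each gene) of the brightest probe of the 6 genes on 4 sham and 4 pancreatectomy arrays (points, numbered by array), with the mean and SD as bars and open points where the probe was not well above background. The groups do not overlap for any of the 6 genes, with gaps from 0.52 for Mapk15 to 1.34 for Tbx1.

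The 8 arrays lie on 1 slide with 2 rows, each row holding 2 arrays of each group. For Tbx1 the difference was -3.71 within row 1 and -2.19 within row 2. Pdzrn4 gave -1.25 and -1.65, Nxph1 -1.37 and -0.96, and Gfra3 -1.30 and -1.06. Dpp10 gave -1.28 and -1.40, and Mapk15 -0.98 and -1.002, so these genes differed least between rows. The groups occupy different slide columns, and an effect of the column cannot be told apart from one of the operation.

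Within the groups the 6 genes did not run together as one set. Over deviations from the group means on 8 arrays, the 15 pairs of genes had a median Pearson's r of -0.022. Dpp10 and Gfra3 had the highest, 0.67, and Dpp10 and Mapk15 the lowest, -0.64. Gfra3 and Tbx1 had 0.65. Only 7 of the 15 pairs lay above 0. All these values share the scaling of the same 8 arrays and are given as a description.

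The choice also depended on a limit of non-overlap. Of the genes with a symbol, 90 had a difference at least as low as that of Mapk15, and on 58 of these, the 6 included, every pancreatectomy array was below every sham array. Just inside the limit of non-overlap, though not among the 6, lay LOC100047044 (-1.02, a gap of 0.0044) and A930035D04Rik (-1.05, a gap of 0.0092). Just outside lay Gramd2 (-1.89, an overlap given by a gap of -0.011) and Egflam (-1.32, -0.012). By difference, Pdzrn4 was 12th from the lowest, Dpp10 22nd, Gfra3 43rd, Nxph1 45th and Mapk15 90th.

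Relatives and partners of the 6 genes showed no change that passed the test. Across 8 lists, 121 of 143 listed genes other than the 6 were measured, and 0 passed an adjusted p of 0.05 in either direction by limma with Benjamini-Hochberg adjustment over all features. Of these 121 genes, 16 (13.2%) had an unadjusted p under 0.05, beside 10.6% of all features. Over all features limma called 192 (0.622%), of them 165 higher (0.535%) and 27 lower (0.0875%). The list genes ranged from -0.94 to 1.26 with a median of -0.058, beside a median of -0.040 over all features. On 8 of the 121 (6.61%) every pancreatectomy array was below every sham array, beside 5.41% of all features. These were Nxph3, Nlgn2, Clstn1 and Dag1 of the neurexin list, Lnx1, Map2k1, Map2k5 and Rfx2. In the other direction, every pancreatectomy array was above every sham array for Tbx3, Gata4, Foxc1, Eya1 and Prep. Of these, Tbx3 is on the T-box list, and Gata4, Foxc1 and Eya1 are on the list tied to Tbx1 in development. The share of all features in that direction was not counted. With array weights in the fit, Kcnd2, Nlgn2, Nrxn3, Clstn1, Mapk8 and Rfx2 passed. A gene that misses the threshold is not shown to be equal in both groups.

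Among T-box genes, 8 of 16 relatives of Tbx1 were measured, with a median of 0.15. Tbx3, a T-box repressor, was 0.63 ± 0.23 (SE) with a limma adjusted p of 0.40, and Tbx22, linked to palate development, was 0.73 ± 0.88. Mga, which carries both a T-box and a Max-binding domain, was -0.39 ± 0.22. Of 24 genes tied to Tbx1 in development, 18 were measured with a median of 0.13, among them Gata4 (0.84 ± 0.29), Foxc1 (0.59 ± 0.19), a forkhead factor, and the ligand Fgf8 (-0.69 ± 0.74).

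The Kv4 channel complex and the dipeptidyl peptidases gave a median of -0.086 over 16 measured relatives of Dpp10. Kcnd2, a pore-forming Kv4 subunit, was -0.58 ± 0.20 with a limma adjusted p of 0.37, and Kcnip2, an accessory subunit, was -0.45 ± 0.50. Dpp6, the closest relative of Dpp10, was -0.063 ± 0.14. Fap, a peptidase of activated fibroblasts, was 1.26 ± 0.56, with an adjusted p of 0.47.

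For Nxph1, 20 of 24 neurexophilins, neurexins and partners were measured, with a median of -0.10. Clstn1, a calsyntenin, had a difference of -0.76 ± 0.19, with a limma adjusted p of 0.18. Nxph3, another neurexophilin, was -0.59 ± 0.17 (adjusted p 0.27), and Cbln2, a secreted ligand of neurexins, was -0.94 ± 0.48. Nrxn3 was 0.61 ± 0.19 on its brightest probe and -0.30 and -0.04 on its other probes, so its probes disagreed.

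For Gfra3, 12 of 13 GDNF-family ligands and receptors were measured, with a median of 0.015. The signalling receptor Ret was -0.29 ± 0.21 (limma adjusted p 0.65), and Artn, the ligand artemin, was 0.084 ± 0.26. The other co-receptors were 0.0045 ± 0.20 for Gfra1, 0.34 ± 0.23 for Gfra2 and 0.14 ± 0.23 for Gfra4 on its brightest probe. The other Gfra4 probes gave -0.04, -0.53 and -0.15, so its probes disagreed. Gdf15, a stress-induced ligand, was 0.85 ± 0.58, and Gdnf was 0.39 ± 0.24. None of the 12 had an unadjusted p under 0.05.

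For Pdzrn4, 6 of 7 related ligases and partners were measured, with a median of -0.069. Lnx1, a ligase of the Notch regulator Numb, was -0.51 ± 0.20 with a limma adjusted p of 0.41. Pdzrn3, the nearest relative, was -0.093 ± 0.24, and Numb was -0.16 ± 0.28.

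For Mapk15, all 20 other MAP kinases and their upstream kinases were measured, with a median of -0.10. Map2k1, a kinase that activates MAP kinases, was -0.48 ± 0.17 with a limma adjusted p of 0.38, and Map2k7 was -0.51 ± 0.31. Mapk8 was 0.71 ± 0.23 on its brightest probe and -0.08 and 0.31 on the others. Autophagy and motile cilium genes, 21 of 23 measured, had a median of -0.23, beside -0.040 over all features. Of the 21, 0 passed the test. Among these genes, Rfx2, a regulator of cilium genes, was -0.74 ± 0.19 with a limma adjusted p of 0.20. Ulk1, which starts autophagy, was -0.49 ± 0.34, and Foxj1, the main factor of motile cilia, was -0.48 ± 0.68. Rfx2 and Foxj1 were each well above background on 3 of 4 sham and 2 of 4 pancreatectomy arrays.

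**Figure D2:**
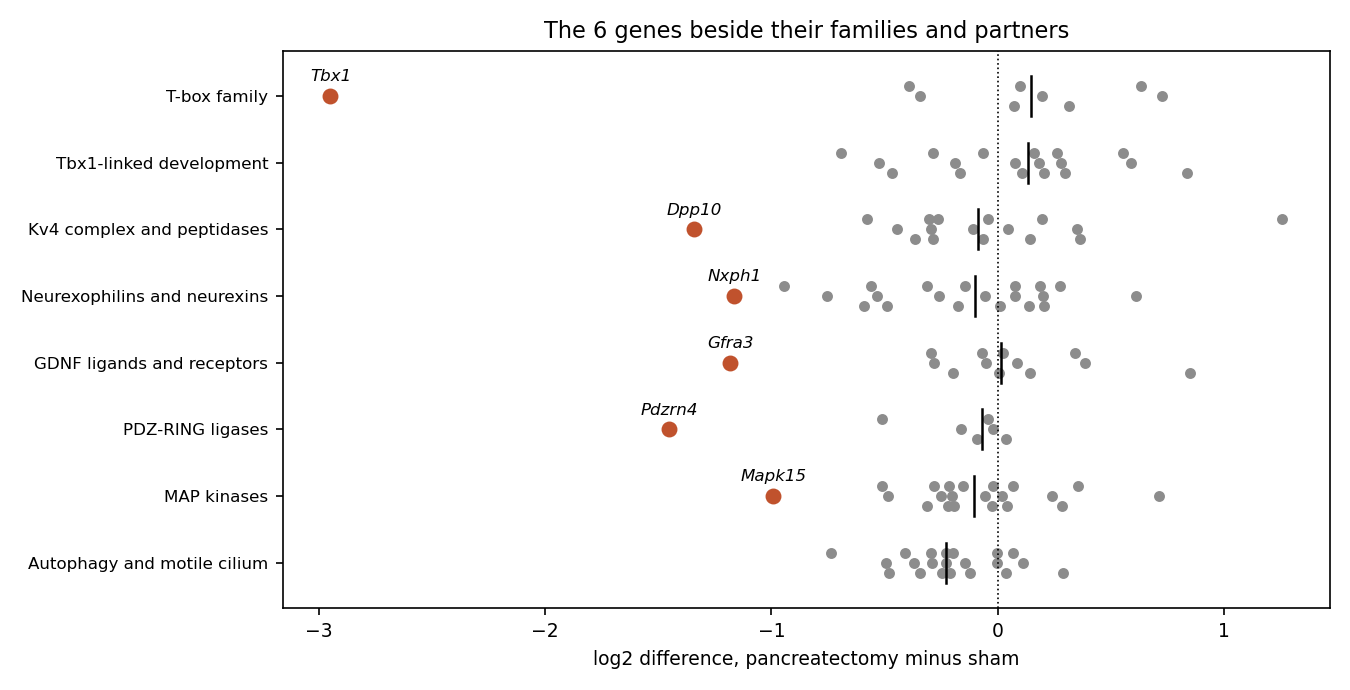
Log2 difference, pancreatectomy minus sham (x axis), of the 6 genes (large points) and of the other measured genes of their 8 lists (small points, with the list's median as a bar). Tbx1 lies at -2.95 where its T-box relatives lie between -0.39 and 0.73. On brightest probes each of the 6 lies left of the other genes of its list. The 6 were chosen for their fall, so this placing was largely fixed by the choice.

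Genes beside the 6 on the chromosome were looked at by gene order alone. Of 24 neighbours, 2 on each side, 1 passed the test, Kif20a beside Gfra3, which encodes a mitotic kinesin and rose by 2.49 ± 0.30 (limma adjusted p 0.0097). Cdc25c, a mitotic phosphatase on the other side of Gfra3, was 2.53 ± 0.72 with a limma adjusted p of 0.26. Its sham mean of 2.40 lay below the lowest signal well above background on each sham array, 2.74 to 5.18. Around Tbx1, Txnrd2 was -0.28, Gnb1l -0.25, Gp1bb 0.25 and Septin5 -0.25. Around Mapk15, Zfp707 was -0.43, Ccdc166 -0.40, Fam83h -0.52 and Iqank1 0.25. For Zfp707, Ccdc166 and Fam83h, for Txnrd2 and for Glcci1 beside Nxph1, every pancreatectomy array was also below every sham array. Over all features this held for 5.41%. The median over the 24 was -0.12, and the lowest was Fam83h.

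The genes whose values followed each of the 6 most closely over the 8 arrays were ranked by Pearson's r among 16307 genes. The r includes the group difference, so the r of deviations from group means is given beside it. The named genes are the closest of 16307 over only 8 arrays, so a high r is what the ranking selects for. The r of deviations is not independent of that choice, and both are given as a description. For Tbx1 they were Scnn1a (0.99, and 0.91 for deviations), Pip5k1a (0.98 and 0.87) and Irgm2 (0.98 and 0.93). For Dpp10 they were Thap3 (0.99 and 0.94), Nkx1-2 (0.99 and 0.88) and Tcp11 (0.98 and 0.81). For Nxph1 they were Gtf3c1 (0.98 and 0.93), Mta3 (0.97 and 0.80) and Igsf21 (0.97 and 0.86).

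Gfra3 was followed by Pcf11 (1.00 and 0.98), Klhl13 (0.99 and 0.93) and Stat5b (0.99 and 0.97). Pdzrn4 was followed by Vps26a (0.99 and 0.91), Usp35 (0.98 and 0.89) and Smug1 (0.98 and 0.89). Mapk15 was followed by Coq8a (0.99 and 0.91), Cspp1 (0.98 and 0.83) and Nbeal2 (0.98 and 0.91). None of the 6 was among the closest 3 of another, and the nearest was Gfra3, 10th for Dpp10 and 22nd for Tbx1.

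Markers of islet cells were present, Ins1, which encodes insulin, among them with a difference of -0.085 ± 0.34 (SE). The alpha cell list was also lower on every pancreatectomy array than on every sham array. Its mean stood at -1.35, -0.91, -0.69 and -0.94 from the sham mean on pancreatectomy arrays 1 to 4, and its level was 12.84 to 13.33 on sham arrays and 11.66 to 12.33 on pancreatectomy arrays. All 7 measured of 8 alpha cell markers were negative. Of these, Irx1 was -1.77 ± 0.31 (SE, limma adjusted p 0.053), Irx2 -1.35 ± 0.26 (0.069) and Gcg, which encodes glucagon, -0.50 ± 0.24 (0.50).

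Set against the mean of the alpha cell list instead of the 75th percentile, the differences were -1.98 ± 0.35 (SE) for Tbx1, -0.48 ± 0.29 for Pdzrn4, -0.37 ± 0.26 for Dpp10, -0.21 ± 0.24 for Gfra3, -0.19 ± 0.25 for Nxph1 and -0.019 ± 0.28 for Mapk15. For Gfra3, Nxph1 and Mapk15 the SE was larger than the difference. This scaling was added after the data were seen, and it moved the median of all features to 0.93. Whether any of the 6 genes is expressed in alpha cells was not measured here, and the part of alpha cells in these differences was not tested.

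The beta cell list was lower by less. Its mean stood at -0.50, -0.095, -0.45 and -0.19 on the pancreatectomy arrays, 16 of 18 markers were negative and 1 passed the test, Kcnj11 (-0.83 ± 0.13, limma adjusted p 0.032). The mean difference was -0.31 for the beta cell list and -0.97 for the alpha cell list. The medians over markers were closer, at -0.34 and -0.50. Against the beta cell list the differences were -2.64 for Tbx1, -1.03 for Dpp10, -0.85 for Nxph1, -0.87 for Gfra3, -1.14 for Pdzrn4 and -0.68 for Mapk15, and the part of beta cells in them was not tested.

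Other cell types differed between arrays of the same group. The acinar list stood at 1.22, 0.33, -1.69 and 0.13 from the sham mean on sham arrays 1 to 4. On pancreatectomy arrays 1 to 4 it stood at -0.76, 0.19, 1.33 and 0.32. The fibroblast, stellate and pericyte list was 2.49 and 1.75 above the sham mean on pancreatectomy arrays 1 and 3, and 0.080 and 0.11 on arrays 2 and 4. The macrophage list was 1.66 and 1.39 above it on arrays 1 and 3, and -0.46 and -0.054 from it on arrays 2 and 4. The liver gene Alb read 13.79, 14.89 and 12.61 on sham array 4 and pancreatectomy arrays 1 and 4, against 2.11 to 4.89 elsewhere. Gut and B-cell lists were high on pancreatectomy array 3, at 3.34 and 5.40 above the sham mean. Schwann and glia markers, at 0.42, 0.39, -0.047 and 0.51, and neuron markers, at -0.18, 0.38, -0.082 and 0.30, did not share the direction of the 6 genes on every array. Proliferation genes were higher on all pancreatectomy arrays, and 9 of 10 passed the test.

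Pancreatectomy array 2 had none of the fibroblast, macrophage, liver, gut or B-cell rises. That every one of the 6 genes lies below the sham mean there was fixed by the choice of genes, so only the sizes are new. They were -3.79 for Tbx1, -1.20 for Dpp10, -1.15 for Nxph1, -1.18 for Gfra3, -1.16 for Pdzrn4 and -1.09 for Mapk15. Without the 2 arrays high in fibroblast markers, the differences were -3.20, -1.15, -1.11, -1.07, -1.33 and -1.10 in the same order. Without the 4 arrays that carried liver, gut or B-cell transcripts, they were -4.05, -1.27, -1.10, -1.28, -1.11 and -1.07, resting on 1 pancreatectomy array. The part of these other cell types in the differences was not tested.

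**Figure D3:**
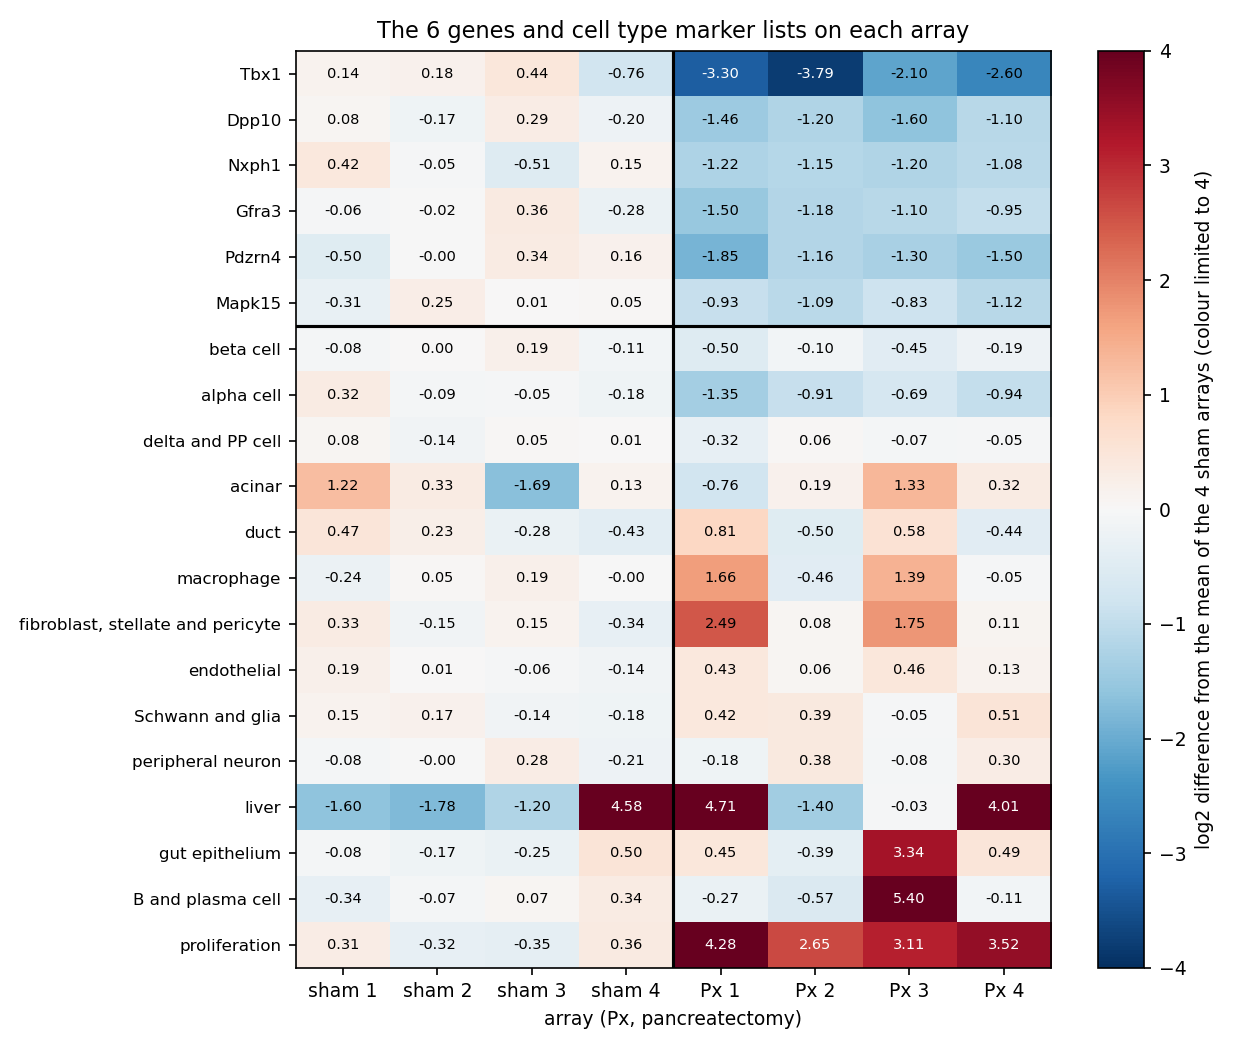
Log2 difference from the mean of the 4 sham arrays (colour and printed value, colour limited to 4) of the 6 genes (upper rows) and of the means of 14 marker lists (lower rows) on each array. The 6 genes, the alpha cell list and the beta cell list are below 0 on all 4 pancreatectomy arrays. The liver list is high on sham array 4 and pancreatectomy arrays 1 and 4, the fibroblast and macrophage lists on pancreatectomy arrays 1 and 3, and the gut and B-cell lists on pancreatectomy array 3.

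The way the arrays were scaled or corrected changed the size of the differences. With background corrected by normexp and an offset of 50 added, the differences were -1.84 for Tbx1, -1.22 for Dpp10, -0.37 for Nxph1, -1.09 for Gfra3, -0.60 for Pdzrn4 and -0.69 for Mapk15. Those of the dim genes Nxph1 and Pdzrn4 shrank most in proportion. An added offset by itself makes log2 differences of dim probes smaller, so these values do not show the effect of background correction alone. Per the authors' deposited table, which gives 1 average per group, the differences were -2.94 for Tbx1, -1.33 for Dpp10, -1.15 for Nxph1, -1.17 for Gfra3, -1.44 for Pdzrn4 and -0.98 for Mapk15.

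**Figure D4:**
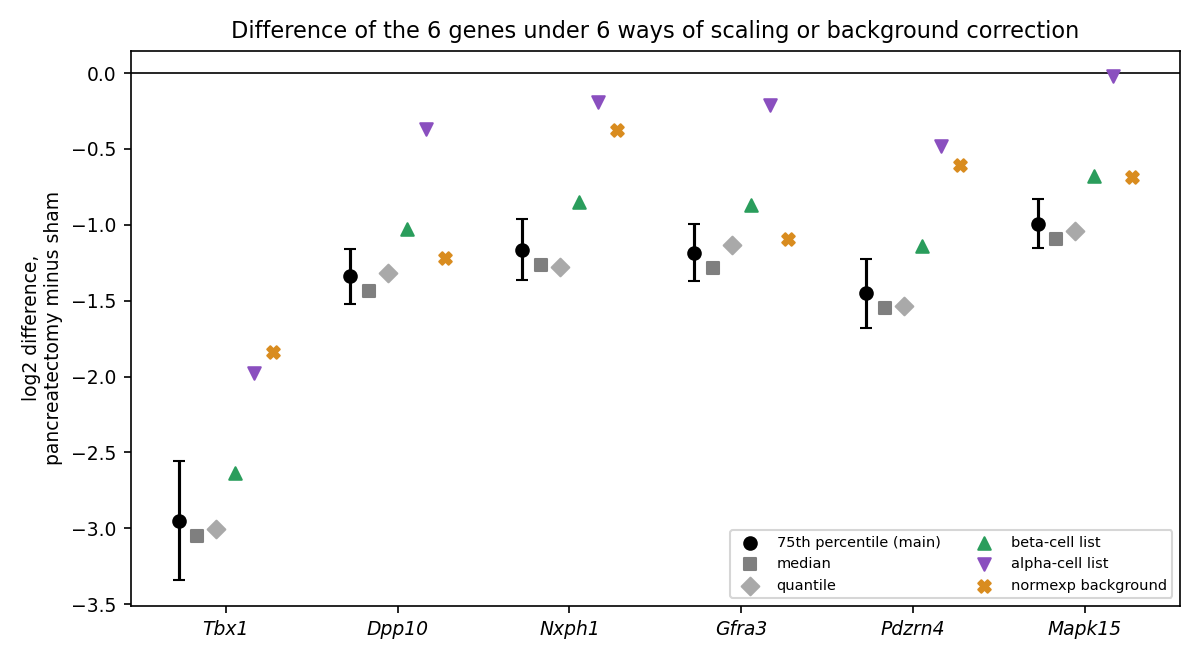
Log2 difference, pancreatectomy minus sham (y axis), of the 6 genes under 6 ways of scaling or background correction (marker shapes), with the SE drawn on the 75th percentile value. The values run from -3.05 for Tbx1 with median scaling to -0.019 for Mapk15 against the alpha cell list.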

How the data were processed

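The authors deposited 1 scanner table per array, with linear spot intensity. Its headers name Feature Extraction 10.7.3.1, and version 9.1 is named in the submitters' processing notes. The processed signal had its background subtracted, per the file headers. A deposited table by the authors holds group averages of raw intensity and of log2 values from GeneSpring GX 12.5, per the file headers. It was used for gene names and as a check: over 30858 features its differences and those from the arrays had a slope of 0.998 and r of 0.986. Its log2 columns have medians of 0.0714 (sham) and 0.0033 (pancreatectomy), and how they were centred is not given in the sources used here.

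Control and outlier spots were left out, 113 to 228 outliers of 59305 spots per array. No spot was saturated. Spots of each of 55681 probes were averaged, and log2 values were shifted to each array's 75th percentile. A probe was kept if well above background on at least 4 of 8 arrays with at least 3 values per group, and the brightest kept probe stood for a gene. Of 33325 probes with a symbol, 30994 were matched to RefSeq names. From 48.1% to 71.4% of probes were well above background per array, and the number of arrays limits the precision. The comparison used limma 3.58.1 (R 4.3.3) with Benjamini-Hochberg adjustment over all features. The fit was also run on simulated data with noise drawn separately for each gene. Those data lack shifts that many genes share on an array, so they do not test the comparison under such shifts. Normexp used an offset of 50 and the median signal, since the mean signal planned for it is not a column of the files used here. Alternatives were other scalings, filters, weights and left-out arrays, and the scaling to alpha cell markers and the exclusion of arrays by marker level were added after seeing the data.

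The 6 genes and all gene lists were chosen with earlier results of these data known. Named were the 6 genes with every probe and, per list, the genes past the threshold or else the 3 with the largest differences. Relatives of direct interest were picked after their values were seen (Dpp6, Nxph3, Artn, Ret, Gfra1, Gfra4, Nlgn2, Dag1, Map2k5, Eya1, Prep and the markers Irx1, Irx2, Kcnj11). Also named were the nearest 2 measured genes on each side, the 3 most alike genes and those at the edge of the choice. The result of 1 alpha cell marker is not reported here. The sham label repeats 1 array position, and the array's own sample record placed it in the sham group.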

Additional observations from a re-analysis of the deposited data

Results flagged for a closer look

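Among 46 groups of 4 arrays examined, 3 held a value far from the rest of its group, and chance alone gives about 1 in 20 such groups. The dimmer Dpp10 probe read 8.853 on sham array 3, where the other sham arrays read 8.53 to 8.56. The liver marker mean was 12.08 on sham array 4, where the other sham arrays lay between 5.73 and 6.31. The B and plasma cell marker mean was 10.39 on pancreatectomy array 3, where the other pancreatectomy arrays lay between 4.42 and 4.88.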

How the results depend on the processing

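The choice of genes without overlap fixes the sign of their differences when an array is left out, so only sizes are given for those. Leaving out each array in turn gave -3.23 to -2.67 for Tbx1, -1.42 to -1.24 for Dpp10, -1.33 to -1.02 for Nxph1, -1.28 to -1.06 for Gfra3, -1.62 to -1.32 for Pdzrn4 and -1.10 to -0.91 for Mapk15. Normexp moved Tbx1 to -1.84, Nxph1 to -0.37, Pdzrn4 to -0.60 and Mapk15 to -0.69. Scaling to the beta cell list moved Dpp10 to -1.03, Nxph1 to -0.85, Gfra3 to -0.87 and Mapk15 to -0.68. Scaling to the alpha cell list, added after seeing the data, moved Tbx1 to -1.98, Dpp10 to -0.37, Nxph1 to -0.19, Gfra3 to -0.21, Pdzrn4 to -0.48 and Mapk15 to -0.019. Leaving out the 4 arrays with liver, gut or B-cell transcripts, also added, moved Tbx1 to -4.05 and Pdzrn4 to -1.11, with the lone pancreatectomy array assumed to vary like the sham arrays. Nxph1 has no value where a probe had to be above background on all 8 arrays.

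Counts over all features depended on the setting, beside 165 higher and 27 lower by limma. They were 18 and 0 without scaling (312 and 75 at an unadjusted p under 0.05), 270 and 7 with the beta cell list, 52 and 6 with normexp, 68 and 4 with no filter on dim probes, and 504 and 593 with array weights. Requiring all 8 arrays above background gave 93 higher, and median scaling gave 45 lower. The slide row as a replicate block gave 11 lower and 111 higher. The share of lower calls was 14.1%, and 26.8% with median scaling, 27.3% with all 8 arrays above background and 54.1% with array weights. Without 1 array the counts ran from 57 to 159 higher and from 4 to 32 lower, the lowest without sham array 2. Without the 2 arrays high in fibroblast markers they were 55 and 2, and without the 4 arrays 0 and 0 (1051 and 589 at an unadjusted p under 0.05). The cause of these changes was not tested. Median scaling moved the median of all features to -0.14, the beta cell list to 0.27 and the alpha cell list to 0.93. That last shift called 24656 features higher and 7 lower.

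The 0 calls among list genes held except as follows. Array weights called 1 Kv4 complex gene (Kcnd2), 3 neurexin partners (Nlgn2, Nrxn3, Clstn1), 1 MAP kinase (Mapk8) and 1 cilium gene (Rfx2), and the beta cell list called 1 MAP kinase (Mapk8). With the shift of the alpha cell list, called genes numbered 5 for the T-box family, 14 for Tbx1-linked development, 12 for the Kv4 complex, 12 for neurexins, 11 for the GDNF family, 5 for PDZ-RING ligases, 18 for MAP kinases and 14 for autophagy and cilium genes.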
